A study of Zea mays with 9 samples.

Results

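Transcript abundance of 4 maize transcription factor genes known from drought work was followed in the growing tip of the primary root as the water supply was reduced. The genes were ZmDREB2A (GRMZM2G006745), ZmDREB2.7 (GRMZM2G028386), ZmNAC111 (GRMZM2G127379) and vp1 (viviparous1, GRMZM2G133398). They were chosen by gene ID and not by a cut on their values, but with earlier results of these data known. They are 4 of the 39323 genes and 12 of the 63074 annotated transcripts counted. Seedlings of the inbred line B73 were transplanted when the primary root was 15 to 25 mm long and then kept at 29 °C in moist, dark boxes of vermiculite. The well-watered boxes had a water potential of -0.02 MPa, and water deficit stress was mild at -0.3 MPa and severe at -1.6 MPa. All roots were harvested 26 h after transplanting, and each library pooled the apical 1 cm of 5 primary roots. There were 3 libraries per treatment, numbered 1, 2 and 3 for well-watered roots, 1, 3 and 4 for mild stress and 1, 2 and 5 for severe stress.

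DREB2 proteins are AP2/ERF transcription factors that bind the dehydration-responsive element in the promoters of genes of dehydration and heat tolerance. In maize, ZmDREB2A is known to be spliced into a short functional form and a longer form in which an inserted exon shifts the reading frame, and natural variation at ZmDREB2.7 and ZmNAC111 has been linked to seedling drought tolerance. ZmNAC111 is a NAC domain factor. VP1 is the maize ortholog of Arabidopsis ABI3, a B3 domain factor that acts with abscisic acid (ABA) in seed maturation and dormancy.

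Abundances are given as CPM, the reads of a gene per 1000000 reads counted in its library. Libraries held 33401124 to 52072025 reads, so that 3 reads, taken as the smallest detectable number, were 0.0576 to 0.0898 CPM. This limit covers counting error only. In every library 48.1% to 48.7% of the reads were unique, which means that they were counted on a single transcript. Among replicates, severe stress replicate 2 stood apart. Its Pearson's r with the other severe stress libraries was 0.981 and 0.986 across genes, whereas all other replicate pairs reached at least 0.993. Of the 26994 tested genes, 37.1% had their highest CPM in this library. CPM are not corrected for library composition by TMM factors. The factor of this library was the largest, at 1.09 against 0.961 to 0.974 in well-watered libraries, and its part in the 37.1% was not tested. Sums of root markers and of shoot or leaf markers were higher under severe stress, and those of seed markers overlapped between treatments. The 9 seed markers summed to 2.51 to 3.19 CPM in well-watered roots. They summed to 2.82 to 3.38 CPM under mild stress and 2.82 to 3.30 CPM under severe stress. Most of this was glb3, at 2.42 to 2.98 CPM in well-watered roots and 2.55 to 3.10 CPM under severe stress, and 3 of the 9 had no reads. In contrast, glb1 was at 0.0230 to 0.0946 CPM in well-watered roots and 0.0960 to 0.546 CPM under severe stress. For zp27 these ranges were 0 to 0.0236 and 0.0282 to 0.136 CPM. The 2 root markers, the crown root gene rtcs and the quiescent centre gene wox5B, summed to 2.19 to 3.59 CPM in well-watered roots, 3.56 to 4.55 CPM under mild stress and 10.1 to 11.1 CPM under severe stress. The median of rtcs was 2.03, 2.53 and 8.71 CPM and that of wox5B 0.66, 1.21 and 1.92 CPM in these treatments, and for both genes every severe stress library was above all others. The 10 shoot or leaf markers summed to 5.82 to 7.18 CPM in well-watered roots, 5.67 to 7.37 CPM under mild stress and 9.74 to 10.1 CPM under severe stress. Most of this was lhcb6, at 3.76 to 4.36 CPM in well-watered roots and 5.48 to 6.63 CPM under severe stress, with PPC1 and lhcb7 at up to 2.14 and 1.72 CPM. The small Rubisco subunit gene ssu1 did not exceed 0.150 CPM, and cab-m1 had reads in a single library only, a well-watered one (0.117 CPM). The part of these shifts in the results was not tested. Tissue pieces were used, so fewer cells of a type and less RNA per cell cannot be told apart.

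The 4 genes differed widely in level. ZmDREB2A had 4501 reads in the 9 libraries, ZmNAC111 had 154, ZmDREB2.7 had 19 and vp1 had 10. On a scale corrected for transcript length (TPM), the mean level was 14.8 TPM for ZmDREB2A, above 73.5% of all 39323 genes. ZmNAC111 followed with 0.343 TPM, above 35.0% of the genes. ZmDREB2.7 (0.0451 TPM) and vp1 (0.0194 TPM) were near the limit of detection, and at this depth their order is that of a few reads.

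**Figure D1:**
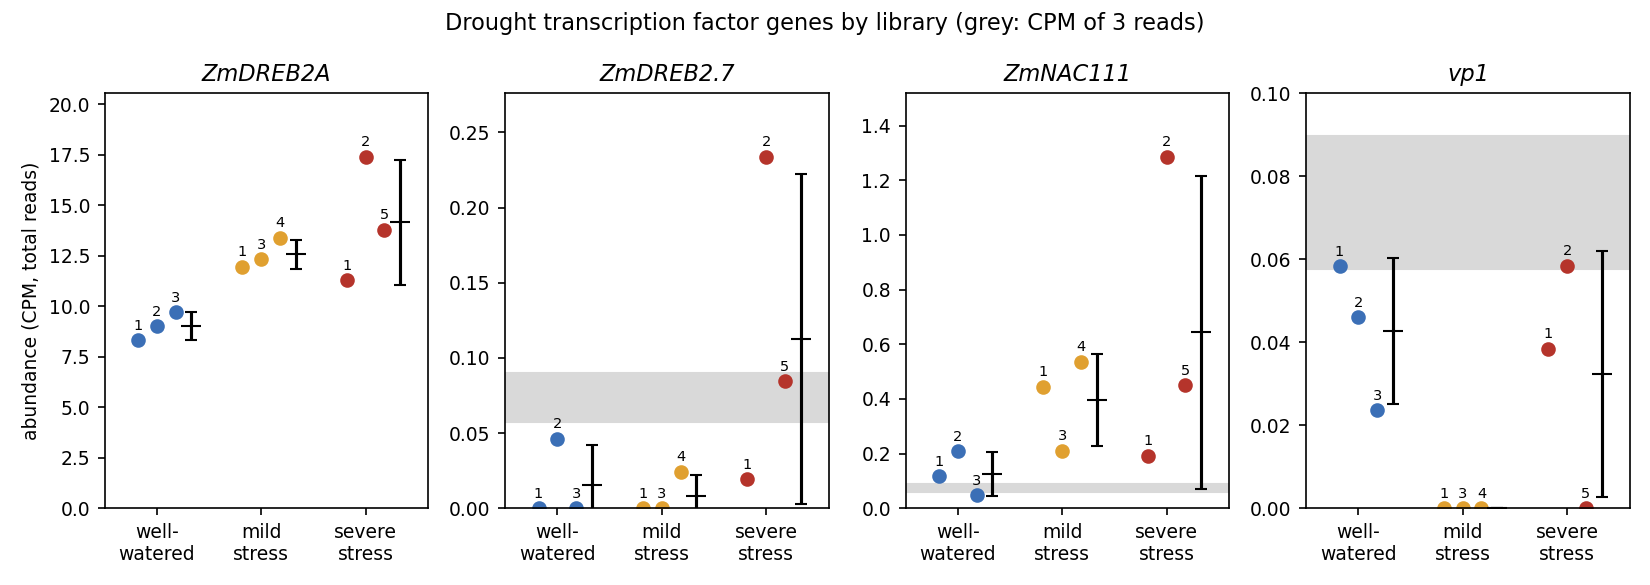
Abundance in CPM (vertical axis, from 0, with its own scale for each gene) in the 9 libraries, grouped by treatment. Points are libraries with their replicate numbers, black marks are the mean and SD of 3 libraries, and the grey band is the CPM of 3 reads (0.0576 to 0.0898 CPM). The 6 ZmDREB2A values of stressed roots lie above the 3 well-watered values, and severe stress replicate 2 is the highest point of ZmDREB2A, ZmDREB2.7 and ZmNAC111.

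ZmDREB2A was higher under both stresses than in well-watered roots. It lies on chromosome 8 from 94530861 to 94534207 on the plus strand (B73 RefGen_v3). Its reads gave 8.31, 9.01 and 9.69 CPM in well-watered replicates 1, 2 and 3. Under mild stress they gave 12.0, 12.3 and 13.4 CPM in replicates 1, 3 and 4, and under severe stress 11.3, 17.4 and 13.8 CPM in replicates 1, 2 and 5. Every stressed library was thus above every well-watered library, an arrangement that 12.4% of all tested genes had, whereas mild and severe stress overlapped. Well-watered roots averaged 9.01 ± 0.69 CPM, mildly stressed roots 12.6 ± 0.74 CPM and severely stressed roots 14.2 ± 3.08 CPM (SD, n = 3 each).

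In the fit across all genes (edgeR's quasi-likelihood F-test, with Benjamini-Hochberg adjustment), the log2 fold change of ZmDREB2A was 0.46 under mild stress (SE 0.124, FDR = 0.0418), a fold of 1.37 with a 95% interval of 1.14 to 1.66. Under severe stress it was 0.52 (SE 0.123, FDR = 0.00355), a fold of 1.43 with an interval of 1.19 to 1.73. Of all tested genes, 4.45% were higher under mild stress and 28.0% under severe stress at FDR < 0.05. The rise was small among these genes, since 75.4% of those higher under mild stress and 72.3% of those higher under severe stress had a larger log2 fold change. Between severe and mild stress, where 49.3% of genes differed at FDR < 0.05, the log2 difference of ZmDREB2A was 0.06, with a 95% interval of -0.20 to 0.33 (FDR = 0.686).

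The mild stress call was close to its threshold. It was kept in 2 of the 9 fits that left out 1 library, those without severe stress replicate 1 and without severe stress replicate 2 (FDR = 0.00404 in the latter), and the FDR reached 0.152 in the others. The severe stress call was kept in all 9 of these fits, with a log2 fold change of 0.36 (FDR = 0.00817) without severe stress replicate 2.

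The gene model of ZmDREB2A has 6 annotated forms, and all are among the transcripts for which the authors listed a CPM. Form T01 joins the first exon directly to the long last exon, with 2 exons and 1362 bases. Forms T03 and T04 carry a 53-base exon between them, from 94531983 to 94532035, whose length is not a multiple of 3, and they differ by 3 bases at the start of the last exon. Form T02 has this exon and a further exon of 91 bases. Form T05 extends the exon that starts at 94531983 to 587 bases and ends there, without the last exon, so that it is the shortest with 801 bases. Form T06 starts within the gene, at 94531921, and has no copy of the first exon. Its own first exon ends at 94532035, so it includes the bases of the 53-base exon, as does the long exon of T05. Which of these forms are the published short and long transcripts is not annotated in the files.

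**Figure D2:**
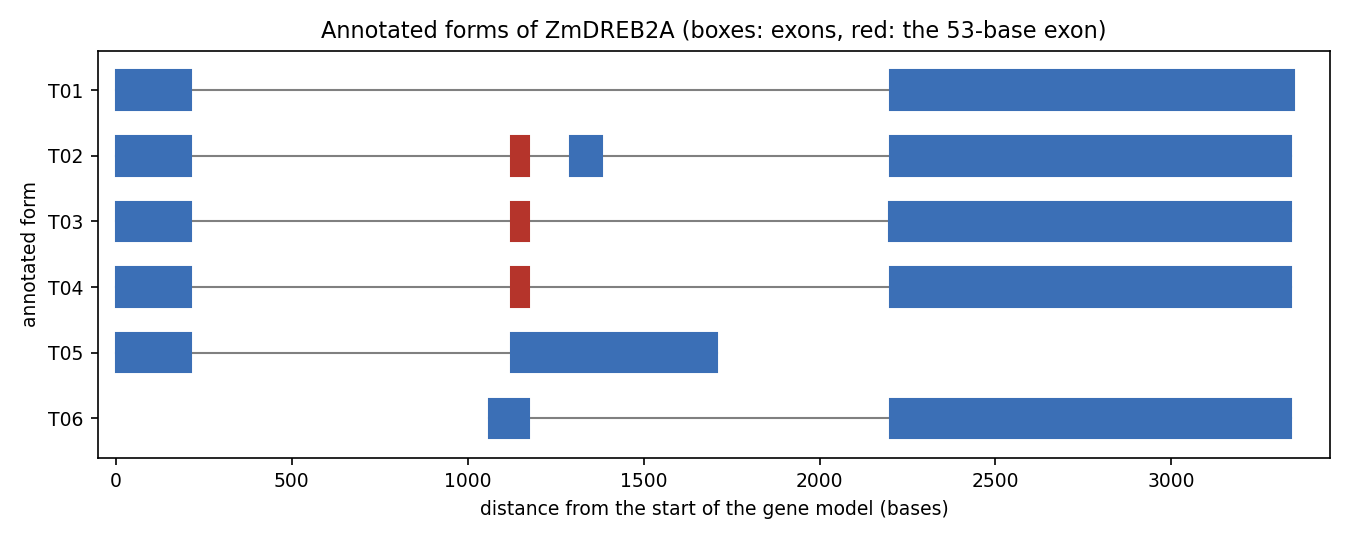
Exons (boxes) and introns (lines) of the 6 annotated forms of ZmDREB2A, drawn to scale, with the distance in bases from the start of the gene model on the horizontal axis and the form on the vertical axis. The 53-base exon of forms T02, T03 and T04 is red, form T01 lacks it, and form T05 ends before the last exon. The same bases lie within longer exons of T05 and T06, which are not drawn in red.

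Of the forms, T05, whose reads are part of the gene's total, was counted most directly. Between 37.3% and 54.8% of its reads were unique in each library, against 0.59% to 1.89% for the other 5 forms together. T05 had 42, 52 and 56 reads in well-watered replicates 1, 2 and 3. Under mild stress it had 61, 71 and 93 reads in replicates 1, 3 and 4, and under severe stress 75, 125 and 66 reads in replicates 1, 2 and 5. In CPM, well-watered roots averaged 1.25 ± 0.066, mildly stressed roots 1.97 ± 0.40 and severely stressed roots 1.91 ± 0.50 (SD, n = 3 each). All 6 stressed libraries were above the well-watered libraries in CPM, as for 7.93% of the 46599 tested transcripts. The difference did not pass the test across transcripts, since the log2 fold change was 0.62 (SE 0.247) at an FDR of 0.294 for mild stress and 0.50 (SE 0.245) at an FDR of 0.161 for severe stress. Of all transcripts, 2.43% passed under mild stress, 29.5% under severe stress and 24.2% between the stresses.

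The share of T05 in the reads of the gene overlapped between treatments and was not tested. Well-watered roots had 13.9 ± 0.75%, mildly stressed roots 15.6 ± 2.58% and severely stressed roots 13.4 ± 0.61% (SD, n = 3 each). Mild stress replicates 3 and 4, at 17.2% and 16.9%, were above all other libraries (12.6% to 14.7%). Of the unique reads of the gene, 75.7% to 94.1% fell on T05, so that a test of unique reads is largely a test of this form. By unique reads alone the log2 fold change of the gene was 0.62 under mild stress (FDR = 0.250) and 0.50 under severe stress (FDR = 0.155), and neither passed.

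Form T01, which skips the 53-base exon, differed widely between severe stress libraries. It had 77, 74 and 31 reads in well-watered replicates 1, 2 and 3, and 86, 40 and 54 reads in mild stress replicates 1, 3 and 4. Under severe stress it had 263, 289 and 33 reads in replicates 1, 2 and 5. Thus 2 severe stress libraries were far above all others, and the third was within the range of well-watered roots. Severely stressed roots averaged 3.87 ± 2.56 CPM and well-watered roots 1.56 ± 0.77 CPM (SD, n = 3 each), and the log2 fold change of 1.22 did not pass (SE 0.612, FDR = 0.172). Without severe stress replicate 5, which holds the low value, the log2 fold change was 1.68 and passed (FDR = 0.0207), and in the other fits that left out 1 library it was not called.

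Form T03, which holds the 53-base exon, showed a different library as high. It had 254 reads (7.16 CPM) in severe stress replicate 5, against 72 and 113 reads in replicates 1 and 2. In well-watered replicates 1, 2 and 3 it had 58, 162 and 118 reads, and in mild stress replicates 1, 3 and 4 it had 165, 47 and 99. The treatments overlapped and its log2 fold change was 0.25 under severe stress (SE 0.604, FDR = 0.799). Form T02 had its highest value in mild stress replicate 4 (184 reads, 4.48 CPM), T04 in mild stress replicate 3 (107 reads, 3.20 CPM) and T06 in severe stress replicate 2 (181 reads, 3.53 CPM). None of the 6 forms passed in any of the 3 comparisons at FDR < 0.05. With 1 library left out, 2 forms passed between severe and mild stress, T01 without severe stress replicate 5 (log2 difference 1.70, FDR = 0.0245) and T04 without mild stress replicate 1 (log2 difference -1.46, FDR = 0.0288). At an unadjusted p below 0.05 in edgeR's test across all transcripts, 3 forms (T02, T04 and T05) were higher under mild stress than in well-watered roots. Their FDRs were 0.309, 0.315 and 0.294. At this p, 1 form (T04) was lower under severe than under mild stress (FDR = 0.0851). The share of all transcripts at this p was not counted, so these forms cannot be set beside it.

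**Figure D3:**
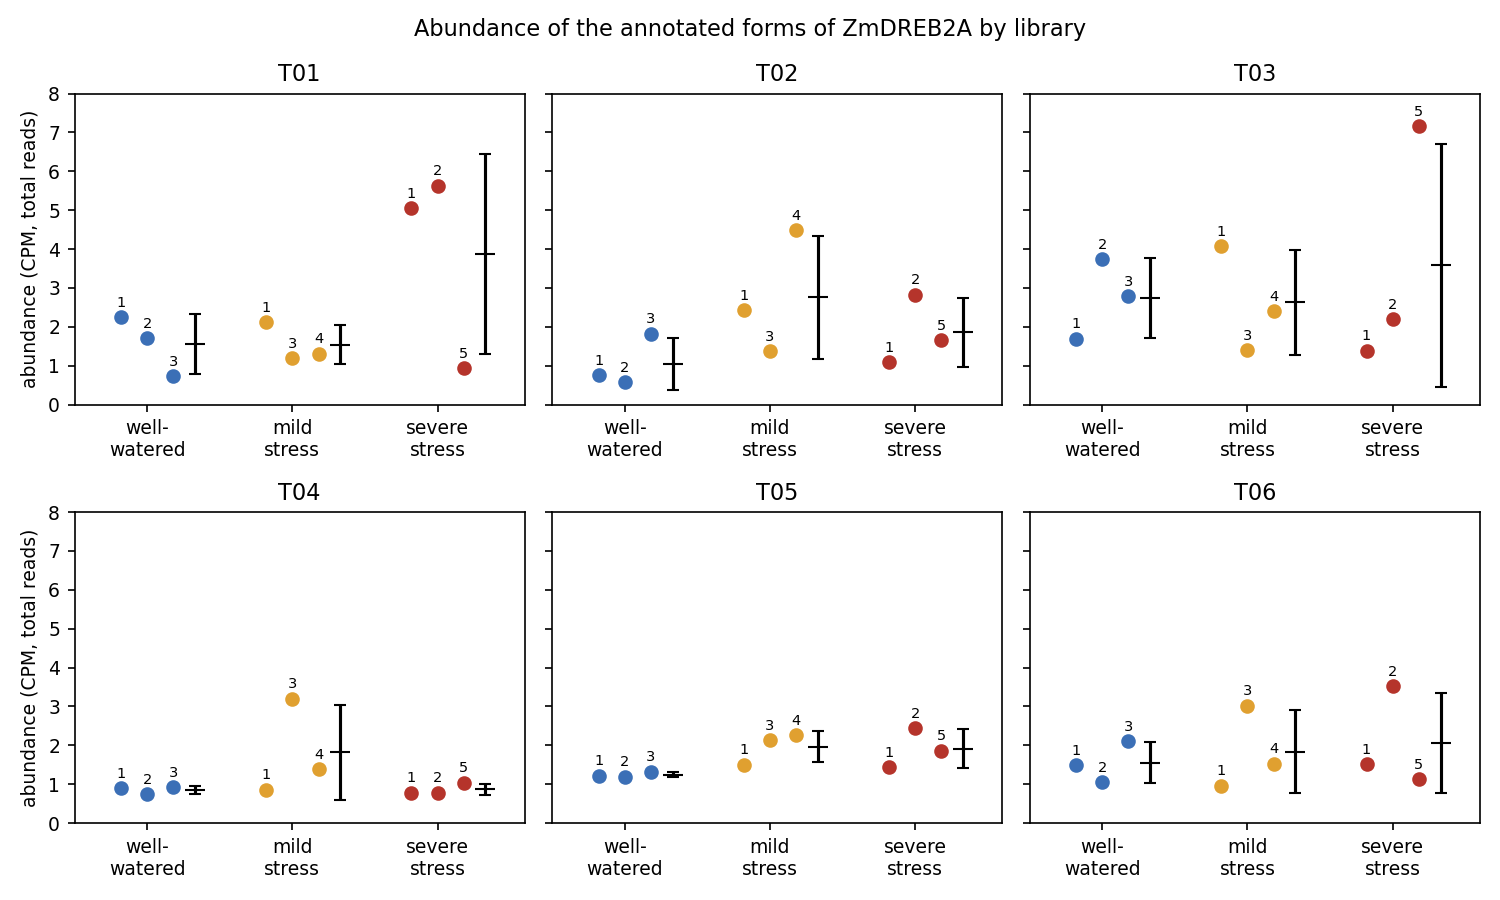
Abundance in CPM (vertical axis, from 0, same scale in all panels) of the 6 annotated forms of ZmDREB2A in the 9 libraries, grouped by treatment, with replicate numbers, means and SD (n = 3). T05 is tight in well-watered roots (1.20 to 1.32 CPM), whereas T01 reaches 5.63 CPM and T03 7.16 CPM in single severe stress libraries.

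The total reads of the 5 forms other than T05 moved with very few unique reads. Where a form had no unique read in a library it had 25 to 63 total reads (20 values), with 1 unique read it had 51 to 107 (14 values), with 2 or 3 it had 98 to 184 (6 values), and with 4 or more it had 162 to 289 (5 values). Pearson's r of total on unique reads was 0.945 over these 45 values, which share libraries and depth. For T01 the high libraries under severe stress, replicates 1 and 2, had 6 and 5 unique reads, and the low one, replicate 5, had none. T03 had 7 unique reads in severe stress replicate 5 and 1 and 2 in the others. How shared reads were assigned to forms is not given in the sources used here, and its part in the differences among these forms was not tested. The sum over all forms does not depend on this assignment within the gene.

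**Figure D4:**
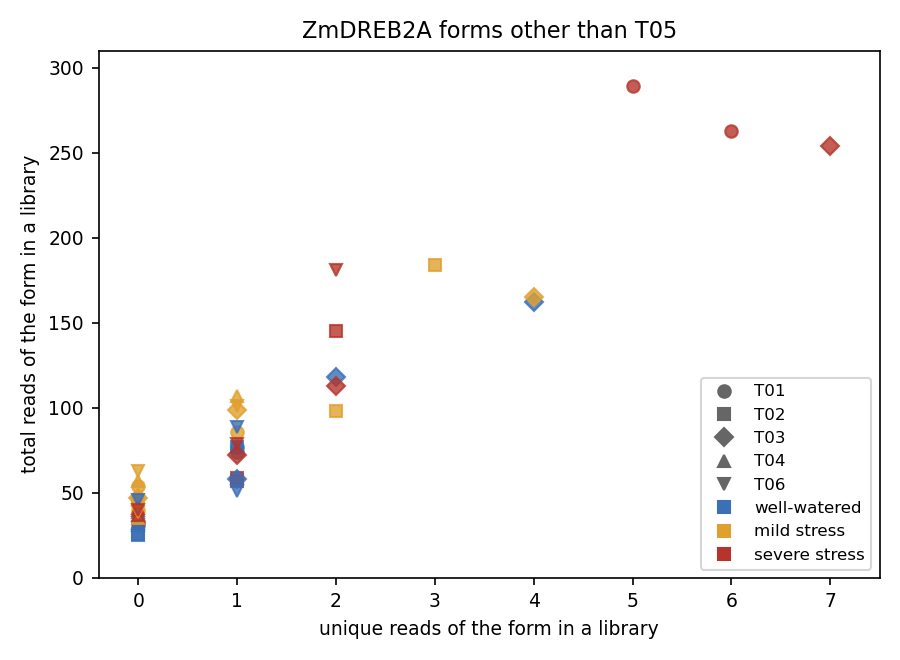
Total reads (vertical axis) against unique reads (horizontal axis) of the 5 forms of ZmDREB2A other than T05, with 1 point for each form and library (45 points), symbols for forms and colours for treatments. Total reads rise from 25 to 63 where there is no unique read to 162 to 289 where there are 4 or more.

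ZmDREB2.7, the relative of ZmDREB2A, was hardly detected. It is a gene of 1 exon and 1584 bases on chromosome 1 (201993810 to 201995393, plus strand), and its only transcript was not among those listed by the authors. All of its reads were unique. It had 0, 2 and 0 reads in well-watered replicates 1, 2 and 3, and 0, 0 and 1 in mild stress replicates 1, 3 and 4. Under severe stress it had 1, 12 and 3 reads in replicates 1, 2 and 5, which is 0.0192, 0.234 and 0.0846 CPM. Only severe stress replicate 2 was clearly over 3 reads, and the treatments overlapped. The gene was not part of the main test. In the fit without a filter on low counts, the log2 fold change under severe stress was 2.45 (SE 1.17, FDR = 0.109, edgeR), and that under mild stress had an FDR of 0.90.

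ZmNAC111 was a low gene with more reads under severe stress, and most of these came from a single library. It lies on chromosome 10 from 2682268 to 2684357 on the minus strand. Its 3-exon form T01 (1824 bases) was listed by the authors, and the form T02 of 1 exon was not. The gene had 4, 9 and 2 reads in well-watered replicates 1, 2 and 3, which is 0.117, 0.207 and 0.0473 CPM. It had 18, 7 and 22 reads in mild stress replicates 1, 3 and 4 (0.445, 0.210 and 0.535 CPM). Under severe stress it had 10, 66 and 16 reads in replicates 1, 2 and 5 (0.192, 1.29 and 0.451 CPM). The mild stress libraries were all above the well-watered ones, as for 17.9% of tested genes, but the lowest of them (7 reads) and the highest well-watered library (9 reads) were nearly equal in CPM. Severe stress replicate 1 was below well-watered replicate 2.

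For ZmNAC111 well-watered roots averaged 0.124 ± 0.080 CPM, mildly stressed roots 0.397 ± 0.168 CPM and severely stressed roots 0.643 ± 0.572 CPM (SD, n = 3 each). Its log2 fold change was 2.21 under severe stress (SE 0.710, FDR = 0.0196), a fold of 4.63 with a 95% interval of 1.58 to 13.6. Under mild stress it was 1.65 (SE 0.753, FDR = 0.236) and did not pass. The log2 difference between severe and mild stress was 0.57, with an interval of -0.75 to 1.88 (FDR = 0.462), so the stresses were not shown to differ in this gene. Without severe stress replicate 2 the severe stress log2 fold change was 1.17 (FDR = 0.134), and the call was also lost without well-watered replicate 1 (FDR = 0.0520) or well-watered replicate 3 (FDR = 0.0779). By unique reads, of which there were 3, 38 and 9 in severe stress replicates 1, 2 and 5, the FDR was 0.0860.

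By transcript, T01 held 60% to 100% of the reads of ZmNAC111, and every unique read of the gene was on it. Form T02 had at most 4 reads in a library. Tested among transcripts, the log2 fold change of T01 for severe stress was 2.24 (SE 0.844) and did not pass (FDR = 0.0755).

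The vp1 gene was not detectable above a few shared reads. It spans 162842569 to 162847653 on chromosome 3 (plus strand) and has 3 annotated forms, T02 and T03 with 6 exons and T01 with 1, none of which was listed by the authors. It had 2, 2 and 1 reads in the well-watered libraries, 0 in each mild stress library, and 2, 3 and 0 reads in severe stress replicates 1, 2 and 5. None of these 10 reads was unique to a form, and no library exceeded 3 reads. Over the 3 mild stress libraries, a count of 0 allows up to 0.0261 CPM. In the fit without a filter its FDR was 0.247 under mild stress and 0.831 under severe stress.

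Severe stress replicate 2 was thus the library with the highest CPM for ZmDREB2A, ZmDREB2.7 and ZmNAC111. For ZmNAC111 it was more than 2 times the next library, as for 2.54% of tested genes, against at most 0.0815% for any other library. Whether this belongs to the roots of that pool or to the library was not tested.

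Among genes at 1 CPM or more, those whose log2 CPM followed ZmDREB2A most closely over the 9 libraries were GRMZM2G421829 (r = 0.952), GRMZM2G344476 (r = 0.951) and GRMZM2G121612 (r = 0.947). The correlations are a description over 9 libraries and the best of 21997 genes compared. GRMZM2G421829 rose from 43.0 CPM in well-watered roots to 56.6 CPM under severe stress (log2 fold change 0.27, FDR = 0.00957), and GRMZM2G121612 from 21.0 to 28.2 CPM (0.30, FDR = 0.00855). GRMZM2G344476 was at 12.2 and 14.5 CPM and did not pass (0.12, FDR = 0.171).

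Other genes that act beside these factors were followed as lists made from gene symbols. They are described by counts at FDR < 0.05 (edgeR, gene level), beside the share of all 26994 tested genes that were higher (4.45% under mild and 28.0% under severe stress) or lower (4.11% and 26.7%).

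The DREB-type list held 5 genes, dbf1, dbf2, DBP1, DBP2 and DBP4. Under severe stress 3 rose and none fell, and under mild stress none passed (1 did without mild stress replicate 1, severe stress replicate 1 or severe stress replicate 2). The median log2 fold change under severe stress was 0.78, beside 0.01 for all genes. The factor gene dbf1, whose protein binds the dehydration-responsive element of the rab17 promoter, had 12.0, 11.2 and 15.9 CPM in well-watered replicates 1, 2 and 3. Under mild stress it had 16.4, 25.0 and 24.8 CPM in replicates 1, 3 and 4, and under severe stress 56.0, 106 and 68.7 CPM in replicates 1, 2 and 5. Its log2 fold change was 2.43 for severe stress (SE 0.220, FDR = 3.76e-06) and 0.73 for mild stress (FDR = 0.0662). DBP2 rose from 66.8 ± 2.7 to 125 ± 8.88 CPM (SD, n = 3, FDR = 3.41e-06) and DBP1 by 1.20 on the log2 scale (SE 0.230, FDR = 0.000943) under severe stress. Neither passed under mild stress, where DBP2 had a log2 fold change of 0.10 (FDR = 0.473) and DBP1 of -0.01 (FDR = 0.99).

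In the wider AP2/ERF family, of 28 tested genes with an EREB symbol, 2 of them also in the DREB-type list, 12 rose and 5 fell under severe stress. Under mild stress 1 rose and 1 fell, and the count of 2 was 1 without mild stress replicate 4, 6 without severe stress replicate 2 and 4 without severe stress replicate 5. The lowest FDRs under severe stress were those of EREB202 (from 19.4 ± 1.49 to 56.1 ± 12.1 CPM), EREB71 (from 3.67 ± 0.71 to 11.5 ± 1.62 CPM) and EREB160 (from 91.4 ± 2.24 to 137 ± 6.81 CPM, SD, n = 3 each). EREB71 also rose under mild stress, to 6.52 ± 1.27 CPM (SD, n = 3, FDR = 0.00962), and the gene that fell there was EREB179 (log2 fold change -2.52, FDR = 0.00855), which is named after its values were seen.

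Of 26 tested NAC genes, 14 rose and 1 fell under severe stress, with a median log2 fold change of 0.37. Under mild stress 4 rose, none fell and the median was 0.00. NAC20 (GRMZM2G180328) went from 1.06 ± 0.21 to 10.6 ± 1.44 CPM (SD, n = 3) under severe stress, with a log2 fold change of 3.21 (SE 0.176, FDR = 7.9e-08). GRMZM2G336533, 1 of several genes with the symbol NAC1, had 3.50, 1.13 and 0.78 CPM in well-watered replicates 1, 2 and 3. It had 6.77, 8.17 and 8.23 CPM in mild stress replicates 1, 3 and 4 and 39.9, 70.8 and 52.9 CPM in severe stress replicates 1, 2 and 5. Its log2 fold change was 2.14 under mild (FDR = 0.00416) and 4.85 under severe stress (FDR = 8.2e-07). Another gene of that symbol, GRMZM2G014653, rose from 20.05 ± 1.77 to 33.2 ± 1.31 and 51.5 ± 5.64 CPM (SD, n = 3 each; FDR = 0.00019 and 2.93e-07).

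Seed and ABA-inducible genes of kinds known to depend on VP1, matched by symbol, were a list of 12, of which 6 were tested. Those not tested were oleosin, ole17 and ole1 (0, 3 and 56 reads in the 9 libraries), glb1 and glb2 (53 and 2) and c1 (2). Whether each gene of the list depends on VP1 in seeds was not checked, and whether VP1 controls any of them in these roots was not tested. Of the tested genes, 5 rose and none fell under severe stress, and 2 rose and 1 fell under mild stress. The 5 that rose under severe stress were the dehydrin genes dhn1 (rab17) and dhn2, EMB5, a homolog of the wheat Em gene, mlg3 and Lea14A. Of these, dhn1 and mlg3 are named after their values were seen. The gene that fell under mild stress was mlg3 (log2 fold change -0.38, FDR = 0.0432), which rose by 0.67 under severe stress (FDR = 0.000154). EMB5 had 0.44, 0.16 and 0.38 CPM in well-watered replicates 1, 2 and 3, 0.94, 0.75 and 1.41 CPM in mild stress replicates 1, 3 and 4, and 9.72, 16.9 and 12.4 CPM in severe stress replicates 1, 2 and 5. Its log2 fold change was 1.68 for mild stress (FDR = 0.0161) and 5.21 for severe stress (FDR = 1.48e-07). The dehydrin gene dhn2 rose from 908 ± 29.7 to 1297 ± 70.1 CPM with mild stress and 1673 ± 9.77 CPM with severe stress (SD, n = 3 each; FDR = 0.00104 and 5.05e-06). Lea14A went from 0.154 ± 0.057 CPM in well-watered to 1.57 ± 0.738 CPM in severely stressed roots (SD, n = 3, FDR = 0.000104). In the same libraries vp1 itself had 0 to 3 reads. The 3 seed genes that passed under mild stress numbered 1 without well-watered replicate 2 or mild stress replicate 4.

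The rab17 gene dhn1, known as a target of ABA and VP1 in the embryo, was far higher in severe stress replicate 2 than in any other library. It had 5.59, 217 and 11.9 CPM in severe stress replicates 1, 2 and 5, against 0.38 to 0.50 CPM in well-watered libraries. Its log2 fold change was 7.35 with that library (SE 1.47, FDR = 0.00122) and 4.23 without it (SE 0.381, FDR = 7.13e-07). Among severe stress libraries, replicate 2 was also the highest for EMB5 and Lea14A, but the lowest for dhn2, mlg3 and glb3.

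ABA receptor (PYL) genes, which perceive the hormone, and SnRK2 kinase genes, which pass its signal on, fell more often than they rose. Of 16 tested genes, none rose and 8 fell under mild stress, and 4 rose and 9 fell under severe stress. Among the 9 receptor genes 6 fell under each stress, and 1 rose under severe stress. Among the 7 kinase genes 2 fell under mild stress, and 3 rose and 3 fell under severe stress. By unique reads none of the 16 genes rose under severe stress and 8 fell. PYL7 had 63.3, 63.7 and 57.7 CPM in well-watered replicates 1, 2 and 3, 20.2, 13.9 and 14.7 CPM in mild stress replicates 1, 3 and 4, and 3.84, 4.11 and 3.55 CPM in severe stress replicates 1, 2 and 5. Its log2 fold change was -1.94 for mild stress (FDR = 3.55e-06) and -4.12 for severe stress (FDR = 2.68e-09). PYL5 fell from 24.1 ± 3.71 to 5.33 ± 1.49 and 1.46 ± 0.27 CPM (SD, n = 3 each; FDR = 2.21e-05 and 4.41e-08). For PYL3 (GRMZM2G154987) the levels were 6.03 ± 0.92, 1.99 ± 0.14 and 1.90 ± 0.098 CPM (SD, n = 3 each). It fell under both stresses (FDR = 2.87e-05 and 1.18e-06), while the difference between severe and mild stress did not pass (FDR = 0.352).

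Heat stress transcription factor (HSF) genes, some of which act downstream of DREB2A in Arabidopsis, were a list of 11 tested genes. Under severe stress 7 rose and none fell, with a median log2 fold change of 0.61, and under mild stress 2 rose and 1 fell. The mild stress count of 3 was 0 without well-watered replicate 1 or any of the 3 mild stress replicates, and 1 without well-watered replicate 2. Of the genes with the symbol Hsf05, GRMZM2G132971 rose from 18.2 ± 0.58 to 40.4 ± 4.33 CPM and GRMZM2G133023 from 4.77 ± 0.26 to 25.3 ± 7.37 CPM under severe stress (SD, n = 3 each, FDR = 3.39e-07 and 4.82e-07). Hsf01 rose from 103 ± 1.85 to 128 ± 9.52 CPM with mild stress and 172 ± 22.1 CPM with severe stress (SD, n = 3 each; FDR = 0.0334 and 4.01e-05). Without severe stress replicate 2, the genes that passed under severe stress numbered 3 in the DREB-type list, 16 with an EREB symbol, 14 NAC genes, 5 seed genes, 11 ABA receptor and kinase genes and 6 HSF genes.

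**Figure D5:**
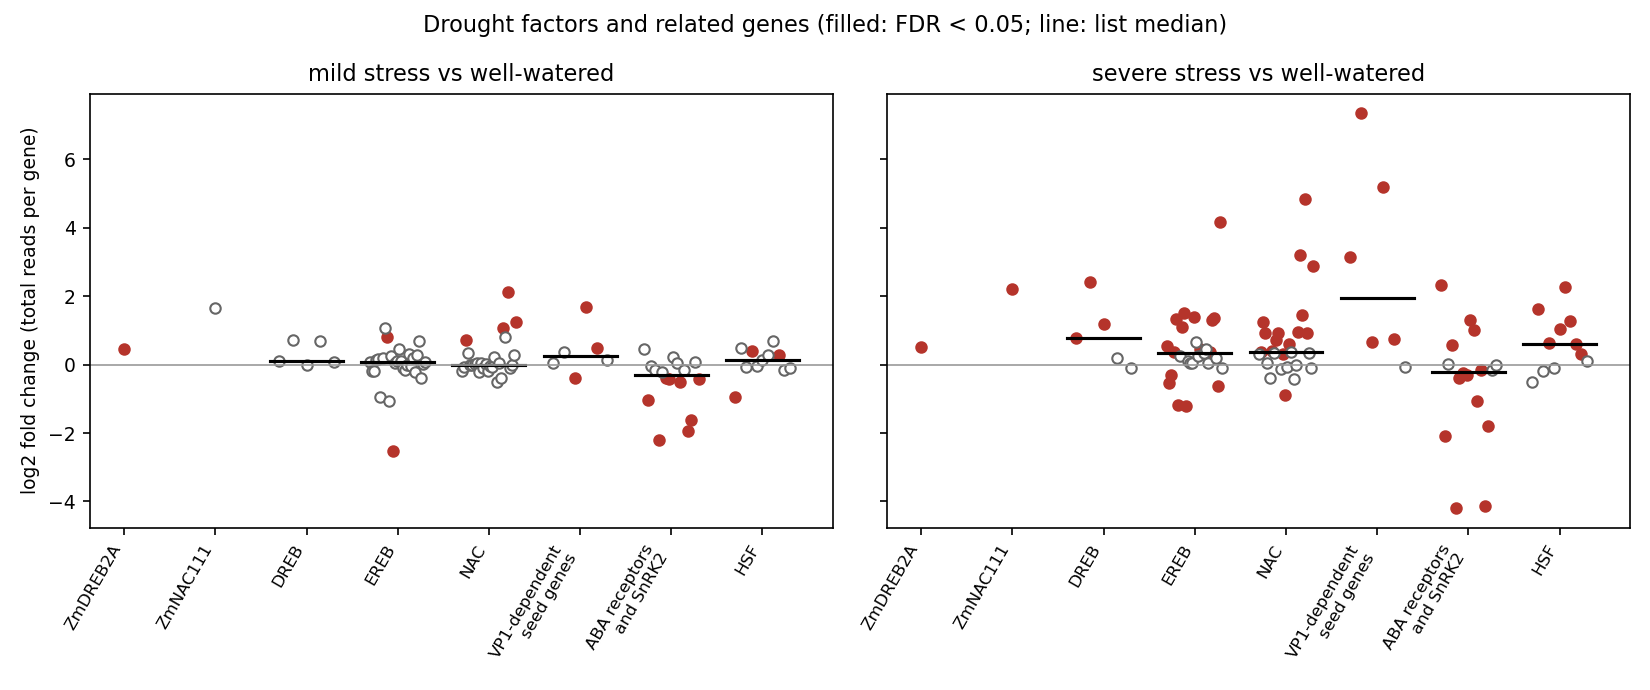
Log2 fold change (vertical axis) of ZmDREB2A, ZmNAC111 and each tested gene of the 6 lists under mild stress (left) and severe stress (right) against well-watered roots. Filled points passed at FDR < 0.05 and lines are list medians. Under mild stress none of the 5 DREB-type genes passed and 8 of 16 ABA receptor and kinase genes fell, and under severe stress 14 of 26 NAC genes and 7 of 11 HSF genes rose.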

How the data were processed

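RNA-seq was analysed in 9 libraries, grouped by the treatment and replicate number of the sample labels. For mild stress the series title gives another water potential than the labels, and that of the labels was used. With CLC Workbench 6.8.1 the authors mapped trimmed reads of at least 36 nt to gene models of B73 RefGen_v3 (Release 5b+) and deposited total and unique read counts per transcript, not normalized. The authors also deposited TPM for each transcript, which were summed per gene to compare levels between genes, and CPM for 46599 listed transcripts, which were used only to choose the transcripts and genes tested. CPM in the text were computed from the deposited counts and all reads of the library, without TMM factors. The shares of genes or transcripts by the order of libraries in CPM are therefore also without them. The assignment of shared reads and the strand of the libraries are not given in the sources used here.

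Total reads were summed by gene ID. Genes with at least 1 listed transcript (26994) and the listed transcripts were fitted in edgeR 4.0.16 (R 4.3.3) with TMM factors (0.961 to 1.09 for genes) and treatment as the only term. The quasi-likelihood F-test was used, with adjustment after Benjamini and Hochberg over all genes or transcripts and FDR < 0.05 as the threshold. SE is the absolute log2 fold change over the square root of F. Replicates are separate pools of 5 roots, and whether pools were grown apart is not given in the sources used here, so p-values measure the spread between pools. The scripts were tested on simulated data. Fold changes use counts, so no pseudocount was added to CPM, and log2 CPM for correlations had a prior count of 2. Python 3.11.15, pandas 2.3.3 and matplotlib 3.10.9 were used.

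The genes and lists were chosen with earlier results of these data known. Lists were matched on symbols and synonyms of the RefSeq gene table for assembly Zm-B73-REFERENCE-NAM-5.0, which named 18845 of 39323 gene IDs, and 3 of the 4 factor genes were in it. Symbols starting with DBP and EREB were added once the table's names, but not values, had been seen. Named genes are the 4 factors with all their forms, the 3 genes with the highest r with any of them at a mean of 1 CPM or more, and the 3 genes of each list with the lowest FDR under severe stress. A list of partners of VP1 matched 2 genes and is not described. Alternatives were unique reads, no filter on low counts, at least 1 CPM in 3 libraries, DESeq2 1.42.0, no TMM factors, the likelihood ratio test, fits of 2 treatments, the replicate number as a block, and each library left out.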

Additional observations from a re-analysis of the deposited data

How the results depend on the processing

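Depth limits ZmDREB2.7, vp1 and, in part, ZmNAC111, where a library holds at most 66 reads, and shared reads limit the single forms of ZmDREB2A. Over all alternatives the log2 fold change of ZmDREB2A kept its direction under both stresses, from 0.41 to 0.62 under mild stress (called in 7 of 17) and 0.36 to 0.65 under severe stress (16 of 17), and that of ZmNAC111 was 1.17 to 2.86 under severe stress (12 of 16). The causes of the changes below were not tested.

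With unique reads the log2 fold change of ZmDREB2A was 0.62 under mild stress (FDR = 0.250), 0.50 under severe stress (FDR = 0.155) and -0.12 between severe and mild stress (FDR = 0.748), and that of ZmNAC111 under severe stress was 1.64 (FDR = 0.0860). Without TMM factors ZmDREB2A had 0.48 under mild stress (FDR = 0.0585), and form T04 had 0.020 in place of -0.08 under severe stress. With unique reads form T06 had -0.77 in place of 0.21 under mild stress. The mean share of each form in the unique reads of ZmDREB2A was 85.1% for T05, 6.79% for T03, 3.72% for T01, 2.39% for T02, 1.69% for T06 and 0.33% for T04, against 14.3%, 25.7%, 19.4%, 15.2%, 15.3% and 10.1% of total reads.

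Genes called under mild stress numbered 2309, and 3838 when only the 2 treatments were fitted. Transcripts called under mild stress numbered 1134, and 1792 with unique reads, 2339 with DESeq2 and 1982 with the likelihood ratio test. For form T01 of ZmNAC111 under severe stress DESeq2 gave 2.25 (adjusted p = 0.0466) and the likelihood ratio test 2.24 (FDR = 0.0292), past the threshold.

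With each library left out, the log2 fold change of ZmDREB2A ranged from 0.41 to 0.51 under mild stress, 0.36 to 0.65 under severe stress and -0.091 to 0.19 between the stresses, and that of ZmNAC111 from 1.24 to 2.29, 1.17 to 2.86 and -0.48 to 1.01. Genes called ranged from 1395 to 3633 under mild stress, with transcripts from 554 to 1427. The forms of ZmDREB2A changed direction as follows. Under mild stress T03 ranged from -0.56 to 0.22, T01 from -0.37 to 0.32 and T06 from -0.33 to 0.51. Under severe stress T03 ranged from -0.72 to 0.64, T04 from -0.22 to 0.00074 and T06 from -0.31 to 0.59. Between the stresses T05 ranged from -0.32 to 0.035, T03 from -0.65 to 0.81, T06 from -0.51 to 0.62, and T01 of ZmNAC111 from -0.66 to 1.07.

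Replicate numbers are shared by only some libraries, the correlation of deviations was -0.00286 to 0.114 for same-numbered libraries and -0.21 to 0.20 for others, and nothing says that a number marks a shared batch. The numbers were therefore not taken as pairs. Numbers 4 and 5 each belong to a single library, mild stress replicate 4 and severe stress replicate 5. With the block these libraries add nothing to the comparisons of treatments. With the replicate number as a block, genes called fell to 1414 under mild stress and from 13310 to 6809 between the stresses, and transcripts to 145, from 13754 to 7453 and from 11290 to 914. ZmDREB2A under mild stress had 0.49 (FDR = 0.0682) with the block, and ZmNAC111 had -0.79 between the stresses (FDR = 0.392). Form T01 of ZmDREB2A passed under severe stress (1.41, FDR = 0.0285), in a fit to which severe stress replicate 5, its low library, adds nothing. With the block, under mild stress T03 had 0.17 and T01 had 0.31, under severe stress T03 had -0.97 and T04 had 0.072, and between the stresses T03 had -1.14 and T01 of ZmNAC111 had -0.95.

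Of list counts, those under mild stress moved most. The DREB-type list had 1 gene passing in place of 0 with unique reads, no filter, the likelihood ratio test or only the 2 treatments. The EREB count of 2 became 4 with DESeq2 or the likelihood ratio test and 6 with only the 2 treatments. With unique reads the NAC count of 4 and the HSF count of 3 became 1. The ABA count became 8 in place of 13 under severe stress and 5 in place of 11 between the stresses. All of these ABA genes fell by unique reads, whereas by total reads 4 rose under severe stress and 5 between the stresses. With the block the counts under mild stress were 1 for EREB, 0 for seed genes, 5 for ABA and 1 for HSF, and between the stresses 6 for EREB in place of 12, 9 for NAC in place of 15, 7 for ABA in place of 11 and 3 for HSF in place of 7.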
